A study of Mus musculus with 9 samples.

Results

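The CC chemokine ligand genes Ccl2, Ccl3, Ccl4, Ccl5, Ccl6, Ccl7, Ccl8, Ccl9, Ccl12 and Ccl24 were described in mouse peritoneal macrophages. They were chosen by name, as every probe whose gene name on the array was one of these 10, out of 23769 named genes. Each had 1 probe, and 8 of the 10 passed the signal filter and were tested among 18175 genes. RNA was measured on 9 Agilent 1-colour arrays, 3 per group. All macrophages came from male mice and had been sorted by flow cytometry for CD45 and F4/80, which is encoded by Adgre1. Group Ctrl was cultured alone for 24 h in regular medium. Group T was co-cultured for 24 h with CT-26, a mouse colon carcinoma line, in the lower chamber of a Transwell, a well divided by a porous membrane. Group M was the migratory macrophages that had been cultured with CT-26 and were taken from the upper chamber, after a time not given in the sources used here. No strain is named, and the groups follow the sample titles because the cell type field calls the T samples migratory while titles, descriptions and protocol give that name to M. Whether the 3 samples of a group were separate cultures or animals is not labelled. The p-values therefore cover only the spread between those samples, and that spread may be technical.

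Chemokines are small secreted proteins that draw leukocytes along a gradient, and the CC family takes its name from a pair of adjacent cysteines. Ligands bind G protein-coupled CC receptors, often several ligands to a receptor and several receptors to a ligand. Macrophages are both a source and a target: the monocyte chemoattractant ligands act mainly on CCR2, several of the macrophage inflammatory ligands on CCR1, and the eotaxin Ccl24 on CCR3.

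The probes were 60 bases long, and the first 30 bases of each are shown because every value below rests on that 1 sequence per gene. No letters are capitalised, since no position was singled out.
Ccl2: tgtaggagtgaccagtgtgacagtgaacta
Ccl7: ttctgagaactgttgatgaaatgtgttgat
Ccl12: cctgaagttccccacgggcagtgtgatatt
Ccl8: accagaagtctcaaattctgcagccttgaa
Ccl24: ccaaggcagtgagaaccaagtttgctgtcc
Ccl3: catgaactgacaaatgtacaatagatgctt
Ccl4: tattatttatgttttagttataggacgcgt
Ccl5: tctcagctgctccgaggctctgcacagcaa
Ccl6: aatgtgtctggttctgatacaagcttaagc
Ccl9: caactaggatgaaataaattctgccttagc
No other probe of the array shared a run of 16 bases with any of these, and the longest run that any of them shared with another of the 10 was 7 to 9 bases. On mouse build mm9, as the files give it, the Ccl2 probe lay on chromosome 11 from 81850650 to 81850709, Ccl7 from 81860656 to 81860715, Ccl12 from 81916764 to 81916823 and Ccl8 from 81930108 to 81930167, all on the plus strand. Further along chromosome 11 lay Ccl5 from 83339296 to 83339355, Ccl9 from 83388223 to 83388282, Ccl6 from 83401997 to 83402056 and Ccl3 from 83461358 to 83461417 on the minus strand, and Ccl4 from 83478052 to 83478111 on the plus strand. The Ccl24 probe lay on chromosome 5 from 136046667 to 136046726, on the minus strand. Exon and UTR annotation of mm9 was not used here.

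Between 60.5% and 78.7% of probes were well above background on an array. Replicate spots varied by 19.7% on M1 and 26.6% on M3 (coefficient of variation) and by 5.63% to 13.1% on the others. Over genes, Ctrl3 correlated at 0.969 with Ctrl1 and 0.981 with Ctrl2. With the M and T arrays it correlated at 0.964 (T3) to 0.976 (M2), so it was about as close to them. Ctrl and M shared a slide and scan, while T had its own, so a difference that involves T cannot be told apart from one between slides. Of 12 macrophage markers 11 were tested, and Adgre1, Ptprc (which encodes CD45), Cd68 and Csf1r were above background on every array. Timd4, a marker of resident peritoneal macrophages, was above background on none. Gata6 and Icam2, in the same list, were above background on every array. Icam2 rose over Ctrl in T (0.87) and in M (1.03), and Gata6 passed in no comparison. Of the 11, 4 rose in T and 5 in M over Ctrl, and none fell, where over all genes tested 17.6% rose and 27.1% fell in T and 12.3% rose and 11.0% fell in M. Adgre1 itself was higher in M than in Ctrl by 2.86 ± 0.22 (log2, SE, adjusted p = 1.33e-05 by limma). The 10 neutrophil markers summed to 0.568 to 1.05 times an array's 75th percentile in Ctrl, 0.903 to 1.14 in T and 2.88 to 2.95 in M. Of 8 tested, 3 rose in M (S100a8, S100a9 and Mmp8) and 5 did not pass. In T, 1 rose (S100a8) and 4 fell, beside the shares of all genes given above. S100a8 was the brightest of them in M, at a mean log2 level of 1.14, and Mmp8 the next at -2.32. Ly6g and Ltf, also neutrophil markers, were above background on no Ctrl or M array. The 15 carcinoma and epithelial markers summed to 3.03 to 5.0 in Ctrl, 2.92 to 3.40 in T and 2.49 to 3.47 in M, with Cdh1, Krt8, Cldn3 and Cdx2 above background on no M array and Cdh1, Cldn3 and Cdx2 on no T array. Of 11 tested, 2 rose in T (Krt19 by 3.63, adjusted p = 1.10e-05, and Elf3 by 1.46, adjusted p = 0.000251, by limma) and 5 fell, while in M none rose and 1 fell. The summed signals of T and NK cell, B cell and dendritic cell markers in T and in M overlapped those in Ctrl. In T, 1 of 8 T and NK cell markers tested rose and 4 fell. Of 6 B cell markers none rose and 3 fell, and of 6 dendritic cell markers 1 rose and 2 fell. In M, Cd3d, above background on no Ctrl or M array, and Itgax rose, and none fell. Itgax, above background on no Ctrl array, was at least 4.20-fold higher in T and 5.63-fold in M. Siglech was the brightest dendritic cell marker, at mean log2 levels of 5.06 to 5.37. Mast cell markers summed to 0.355 to 0.375 in T, above the 0.200 to 0.278 of Ctrl. Mesothelial or fibroblast markers summed to 0.271 to 0.334 in T, below the 0.338 to 1.12 of Ctrl. Both sums overlapped between Ctrl and M. Members went both ways in T: of 2 mast cell markers tested, Tpsb2 rose (1.54) and Cma1 fell (-1.21). Of 6 mesothelial or fibroblast markers tested, Krt5 (-2.06) and Col1a2 (-0.84) fell. Pdgfrb, above background on no Ctrl array, rose at least 2.83-fold. In M, Tpsb2 fell (-0.71) and no other marker of these lists passed. The part of other cells in the results below was not tested.

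In T, 5 of the 8 tested ligands rose over Ctrl and none fell, by limma with Benjamini-Hochberg adjustment over all genes tested and a threshold of 0.05. Ccl2 rose most, by 2.83 on the log2 scale, followed by Ccl4, Ccl7, Ccl6 and Ccl5. The background was the 17.6% and 27.1% given above. The median difference was 0.85 over the 8 ligands and -0.14 over all genes. Ccl3, Ccl9 and Ccl24 did not pass. The relative signal used below is the probe's processed signal divided by the array's 75th percentile, and differences are between means of its log2.

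In M, 6 of the 8 rose over Ctrl and none fell, where 12.3% of all genes rose and 11.0% fell. Ccl2 had a log2 difference of 6.02, rank 18 of 18175 genes. That of Ccl7 was 5.58 from a Ctrl level above background on 1 of 3 arrays, and 3.78 with the normexp background correction. Ccl24, Ccl4, Ccl5 and Ccl3 rose by 0.74 to 1.31, and Ccl6 and Ccl9 did not pass. The median difference was 0.97 over the 8 ligands and -0.09 over all genes. Against T, 3 ligands were higher in M (Ccl7, Ccl2 and Ccl24) and 1 was lower (Ccl6), where 14.6% of all genes were higher and 10.8% lower. The medians there were 0.32 and 0.11. The 3 comparisons share their arrays pairwise, so their values are set side by side and not counted as independent.

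**Figure D1:**
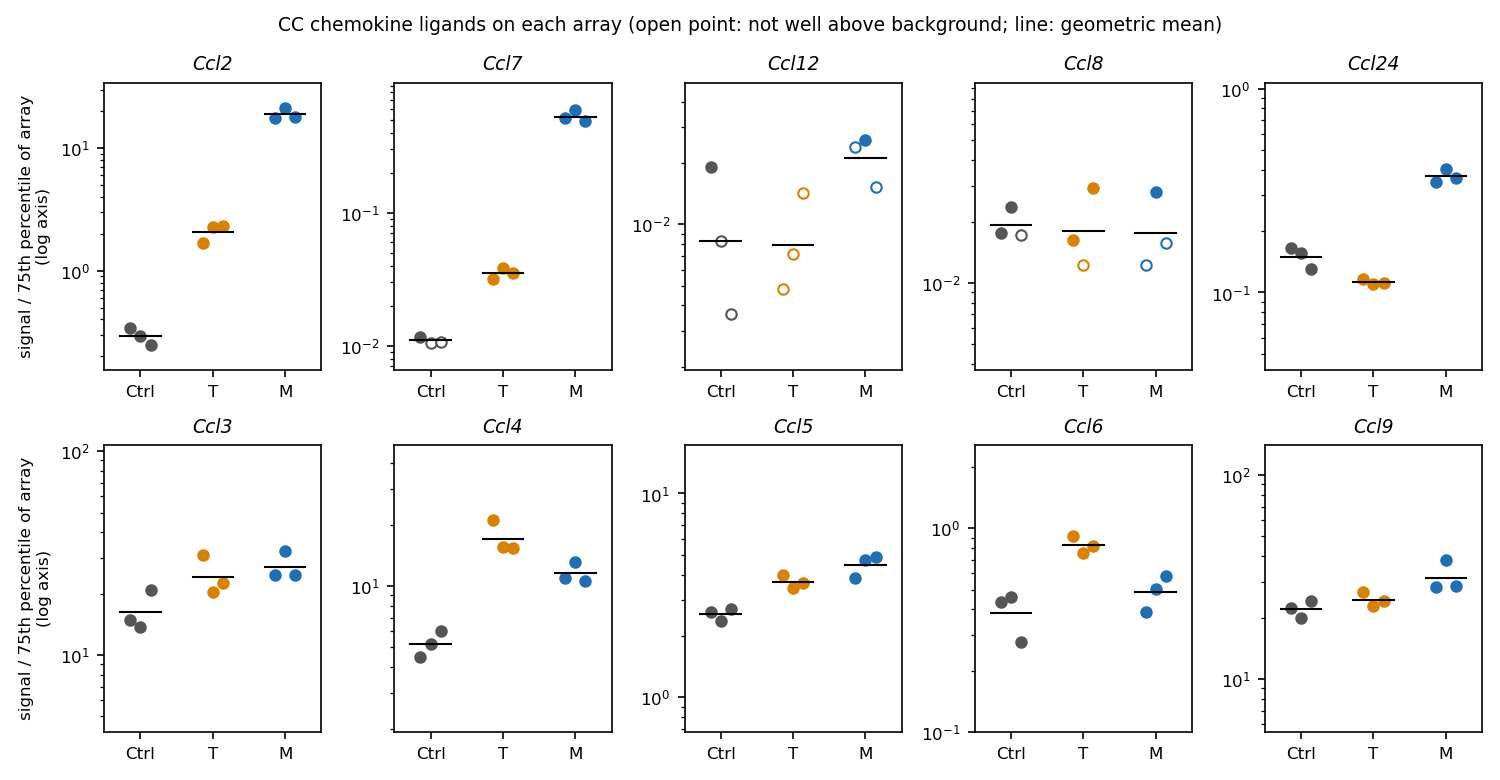
Relative signal (processed signal over the array's 75th percentile, log axis with its own range in each panel) of the 10 ligands on the 3 arrays of Ctrl, T and M, with open points where the probe was not well above background and a line at the geometric mean. Ccl2 and Ccl7 step up from Ctrl to T to M, Ccl4 and Ccl6 are highest in T, and Ccl12 and Ccl8 stay near background.

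Ccl2, the main monocyte chemoattractant acting through CCR2, had relative signals of 0.339, 0.295 and 0.247 in Ctrl, 1.69, 2.26 and 2.32 in T and 17.5, 21.2 and 18.0 in M. The groups formed separate steps, and no array of one group reached the next. The rise over Ctrl was 7.10-fold in T (2.83 ± 0.20, SE, n = 3 per group, adjusted p = 7.32e-06 by limma). It was 64.8-fold in M (6.02 ± 0.20, adjusted p = 7.60e-08), with a 95% confidence interval of 47.9 to 87.5. M exceeded T 9.12-fold (3.19 ± 0.20, adjusted p = 3.69e-06). The Ccl2 probe was printed at 10 spots per array, of which 8 to 10 were kept, and its spots varied by 3.36% to 9.46% within an array. On M1 and M3, where replicate spots of other probes varied most, the Ccl2 spots varied by 7.72% and 9.46%. In a bulk sample, fewer cells that make a transcript and less RNA per cell cannot be told apart, here and in the results below.

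Ccl7, a monocyte chemoattractant that binds CCR2 and also CCR1 and CCR3, had relative signals of 0.0117, 0.0105 and 0.0108 in Ctrl, 0.0320, 0.0382 and 0.0353 in T and 0.511, 0.589 and 0.487 in M. The groups again did not overlap, but only 1 of the 3 Ctrl arrays was above background, so the Ctrl level is close to what the array could detect. The rise over Ctrl was 3.19-fold in T (1.67 ± 0.16, adjusted p = 5.28e-05 by limma) and 48.0-fold in M (5.58 ± 0.16, adjusted p = 3.90e-08). M exceeded T 15.0-fold (3.91 ± 0.16, adjusted p = 3.15e-07), a difference that rests on arrays above background in both groups. With the normexp correction the log2 rise over Ctrl became 0.71 in T and 3.78 in M, both still past the threshold, while M minus T became 3.08. The sizes relative to Ctrl are therefore set in part by the treatment of background.

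Ccl12, a mouse ligand of CCR2, and Ccl8, in the mouse known as a ligand of CCR8, were near background. Ccl12 was above background on 1 Ctrl, no T and 1 M array, and Ccl8 on 2 Ctrl, 2 T and 1 M array. Ccl12 had relative signals of 0.00365 to 0.0191 in Ctrl, 0.00482 to 0.0142 in T and 0.0152 to 0.0260 in M, and the Ctrl and M arrays overlapped. Ccl8 ranged from 0.0122 to 0.0292 over all 9 arrays, with overlap between all groups. Neither entered the main test. With every probe tested, neither passed in any comparison, with adjusted p from 0.0922 to 0.960 by limma. A change in these 2 ligands was not detectable at this signal.

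Ccl24, an eotaxin that draws eosinophils through CCR3, had relative signals of 0.164, 0.156 and 0.131 in Ctrl, 0.117, 0.110 and 0.111 in T and 0.349, 0.402 and 0.364 in M. All M arrays were the highest, and the T arrays lay below all Ctrl arrays by a small margin. The rise in M was 2.48-fold over Ctrl (1.31 ± 0.16, adjusted p = 0.000315 by limma) and 3.29-fold over T (1.72 ± 0.16, adjusted p = 4.57e-05). T minus Ctrl was -0.41 ± 0.16 and did not pass (adjusted p = 0.0586). With median scaling in place of the 75th percentile the difference was 0.01 (adjusted p = 0.959), and with the deposited value table it was 0.11. That table's T2 column, which equalled no scanner file, held Ccl24 at -1.60, beside -3.18 in the T2 scanner file. Leaving out Ctrl3 the T minus Ctrl difference passed (-0.51, adjusted p = 0.0145 by limma). The 7 eosinophil markers, Ccr3 among them, summed to 1.02 to 1.54 in Ctrl, 0.760 to 0.988 in T and 0.591 to 0.974 in M, and none of 6 tested rose in M.

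Ccl3, Ccl4 and Ccl5 encode inflammatory ligands that recruit monocytes, T cells and NK cells, and Ccl3 and Ccl5 act on CCR1. Ccl4 had relative signals of 4.47, 5.22 and 6.01 in Ctrl, 21.0, 15.5 and 15.4 in T and 11.0, 13.2 and 10.6 in M. Every T array exceeded every M array, and every M array exceeded every Ctrl array. Ccl4 rose 3.30-fold in T (1.72 ± 0.20, adjusted p = 0.000161 by limma) and 2.22-fold in M (1.15 ± 0.20, adjusted p = 0.00289). M minus T was -0.57 ± 0.20 and missed the threshold (adjusted p = 0.0576), with a 95% confidence interval of -1.005 to -0.134. It passed in 6 of 23 other settings, leaving out Ctrl3 among them.

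Ccl3 gave a bright signal in every group, at 14.9, 13.8 and 20.7 in Ctrl, 31.1, 20.4 and 22.5 in T and 24.7, 32.3 and 24.6 in M. The M arrays lay above all Ctrl arrays, and 1 T array lay just below Ctrl3. Ccl3 rose 1.67-fold in M (0.74 ± 0.23, adjusted p = 0.0446 by limma), while T minus Ctrl was 0.58 ± 0.23 and did not pass (adjusted p = 0.0626). The call in M was lost in 13 of 23 other settings (adjusted p up to 0.181), among them the omission of Ctrl1, Ctrl2, any 1 M array, T2 or T3. The difference in T passed without Ctrl3 (0.76, adjusted p = 0.0172).

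Ccl5, which in leukocytes acts on CCR1 and CCR3, had relative signals of 2.64, 2.38 and 2.73 in Ctrl, 3.98, 3.43 and 3.62 in T and 3.86, 4.70 and 4.88 in M. Both T and M lay above all Ctrl arrays and overlapped each other. The rise was 1.42-fold in T (0.51 ± 0.16, adjusted p = 0.0295 by limma) and 1.73-fold in M (0.79 ± 0.16, adjusted p = 0.00888). With the replicate number as a block the call in T ended over all 9 arrays (adjusted p = 0.0584 by limma) and held over the Ctrl and T arrays alone (adjusted p = 0.0397). It was also lost when Ctrl1, Ctrl2 or any T array was left out (adjusted p 0.0589 to 0.0941). M minus T was 0.28, with a 95% confidence interval of -0.09 to 0.65.

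Ccl6 and Ccl9 encode rodent ligands of CCR1 that myeloid cells make in the resting state. Ccl6 had relative signals of 0.435, 0.461 and 0.278 in Ctrl, 0.916, 0.759 and 0.819 in T and 0.388, 0.501 and 0.584 in M. The T arrays stood above all others, and M overlapped Ctrl. Ccl6 rose 2.17-fold in T (1.12 ± 0.23, adjusted p = 0.00459 by limma), did not pass in M (0.34 ± 0.23, adjusted p = 0.291), and was 1.71-fold lower in M than in T (-0.77 ± 0.23, adjusted p = 0.0362). The last call ended when M1, M2 or any T array was left out (adjusted p 0.0740 to 0.115).

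Ccl9 lay at 22.4, 19.9 and 24.0 in Ctrl, 26.6, 22.9 and 24.2 in T and 28.3, 38.5 and 28.6 in M. The M arrays were the highest, and T overlapped Ctrl. No comparison passed: T minus Ctrl was 0.16 ± 0.18 (adjusted p = 0.508 by limma), M minus Ctrl 0.51 ± 0.18 (adjusted p = 0.0613) and M minus T 0.36 ± 0.18 (adjusted p = 0.173). Leaving out Ctrl3 brought M minus Ctrl past the threshold (0.58, adjusted p = 0.0318). Quantile normalization did the same (0.71, adjusted p = 0.00407).

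**Figure D2:**
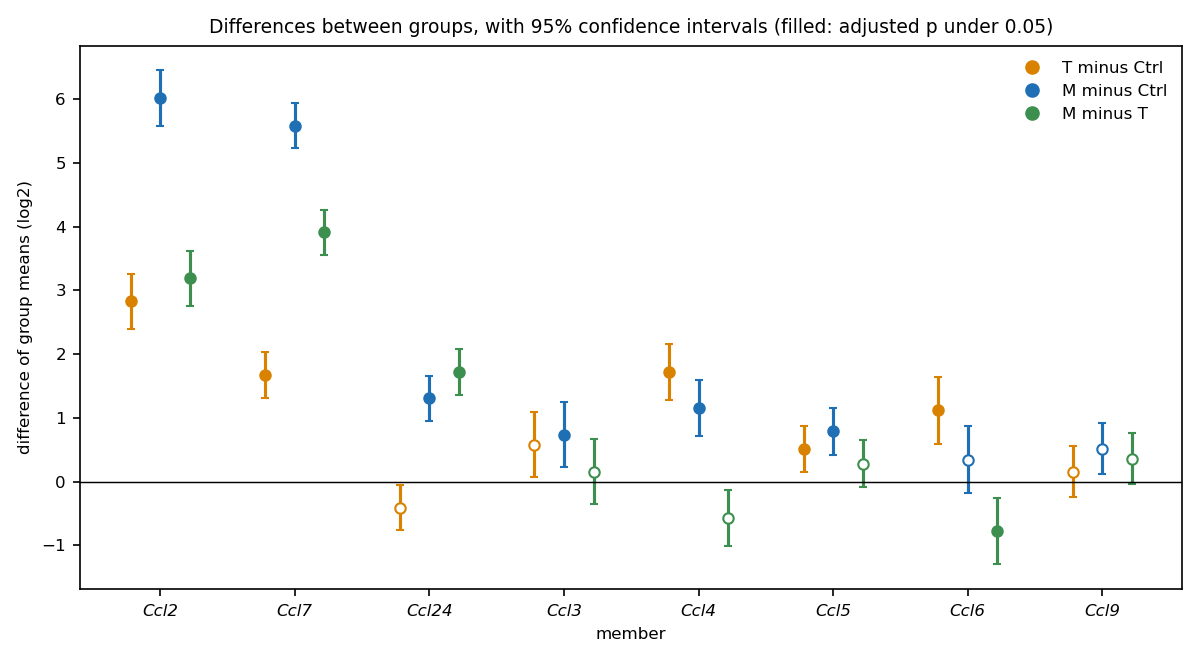
Differences of group means on the log2 scale for the 8 tested ligands, with 95% confidence intervals of the limma fit and filled points where the adjusted p was under 0.05. Ccl2 reaches 6.02 in M minus Ctrl and Ccl7 5.58, the latter from a Ctrl level near background, whereas Ccl4 and Ccl6 have their largest difference in T minus Ctrl.

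Ccl6 and Ccl9 are neighbours, with probes 13.8 kb apart, and their start sites hold related sequence. Both RefSeq windows of 300 bases (GRCm38.p6, chromosome 11, minus strand, from 250 bases before to 50 after the start) are shown because Ccl6 rose in T and Ccl9 did not pass. Capitals mark runs of 10 or more bases found in both.
Ccl6: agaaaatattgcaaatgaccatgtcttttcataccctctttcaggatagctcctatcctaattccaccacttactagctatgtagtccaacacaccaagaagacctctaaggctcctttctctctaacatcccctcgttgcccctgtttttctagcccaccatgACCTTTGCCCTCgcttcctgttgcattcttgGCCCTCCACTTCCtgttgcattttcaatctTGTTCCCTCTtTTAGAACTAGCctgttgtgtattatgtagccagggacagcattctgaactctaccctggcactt
Ccl9: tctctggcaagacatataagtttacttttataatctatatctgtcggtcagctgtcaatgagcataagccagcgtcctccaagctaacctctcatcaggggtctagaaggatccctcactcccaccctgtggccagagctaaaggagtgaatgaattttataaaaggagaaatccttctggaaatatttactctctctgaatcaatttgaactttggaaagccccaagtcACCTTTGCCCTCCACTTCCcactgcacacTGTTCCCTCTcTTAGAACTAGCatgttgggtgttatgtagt
The Ccl6 window spans 83593038 to 83593337 and the Ccl9 window 83578587 to 83578886. A stretch of 19 bases in Ccl9 is covered by overlapping matches to 2 pieces of Ccl6, the longer of them 13 bases, and shared runs covered 46 bases of Ccl6 and 40 of Ccl9. In Ccl6 they begin 86 bases before the start site and in Ccl9 20 bases before it.

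Windows were found for 5 of the 10 ligands, Ccl3, Ccl6, Ccl8, Ccl9 and Ccl12, and both strands were searched for 5 motifs. The Ccl9 window held an AP-1 motif, TGANTCA, 53 bases before the start site and the NF-kB consensus 35 bases before it. These occur in 7.81% and 4.51% of 32851 such windows. The Ccl3 window held an interferon-stimulated element, GAAANNGAA, 39 bases before the start site and an overlapping PU.1 core, GAGGAA, 33 bases before it, found in 8.56% and 28.3% of windows. The PU.1 core also occurred in Ccl8 and Ccl12. The C/EBP motif TTGCNNAA, in 10.8% of windows, was in none of the 5, and the Ccl6 window held none of the motifs.

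Of the 10 ligands, all but Ccl24 lie in 2 groups on chromosome 11. Ccl2, Ccl7, Ccl12 and Ccl8 spanned 79.5 kb, and Ccl5, Ccl9, Ccl6, Ccl3 and Ccl4 spanned 138.8 kb, beginning 1409.1 kb further on. Within 200 kb of the first group 2 other named genes were tested, Ccl1 and 5530401A14Rik, and neither passed in any comparison. Ccl2 and Ccl7, 10 kb apart, rose together, while Ccl12 and Ccl8 beyond them were near background.

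Around the second group, 3 genes on the Ccl4 side rose. Wfdc17, a gene of the whey acidic protein family that macrophages express, was higher by 2.11 ± 0.21 in T and 2.26 ± 0.21 in M (adjusted p = 7.94e-05 and 5.38e-05 by limma), and its neighbour Wfdc18 by 1.96 and 1.88. Wfdc21 of the same family was higher in M over both Ctrl (2.12) and T (1.62) and did not pass in T (0.50, adjusted p = 0.0839). On the Ccl5 side, Heatr9, Gas2l2, Mmp28, Taf15 and Rasl10b were lower in T, by 0.91 to 1.97. Of 11 named genes tested near this group, 2 rose and 5 fell in T, beside 17.6% and 27.1% of all genes, and 3 rose and 2 fell in M, beside 12.3% and 11.0%. Near Ccl24 on chromosome 5, 8 named genes were tested. Of these, 2 rose and 3 fell in T, beside 17.6% and 27.1% of all genes. In M 2 rose and 1 fell, beside 12.3% and 11.0%. Those that rose in M, as Ccl24 did, were Por (1.04) and Hip1 (0.82), though another Hip1 probe did not pass (0.24). The adjacent eotaxin gene Ccl26 was lower in T (-1.73 ± 0.40) and in M (-1.43 ± 0.40). Its relative signal was low, at 0.108, 0.117 and 0.0394 in Ctrl and 0.0219, 0.0409 and 0.0286 in M. The M arrays, of which 2 were above background, thus overlapped Ctrl.

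**Figure D3:**
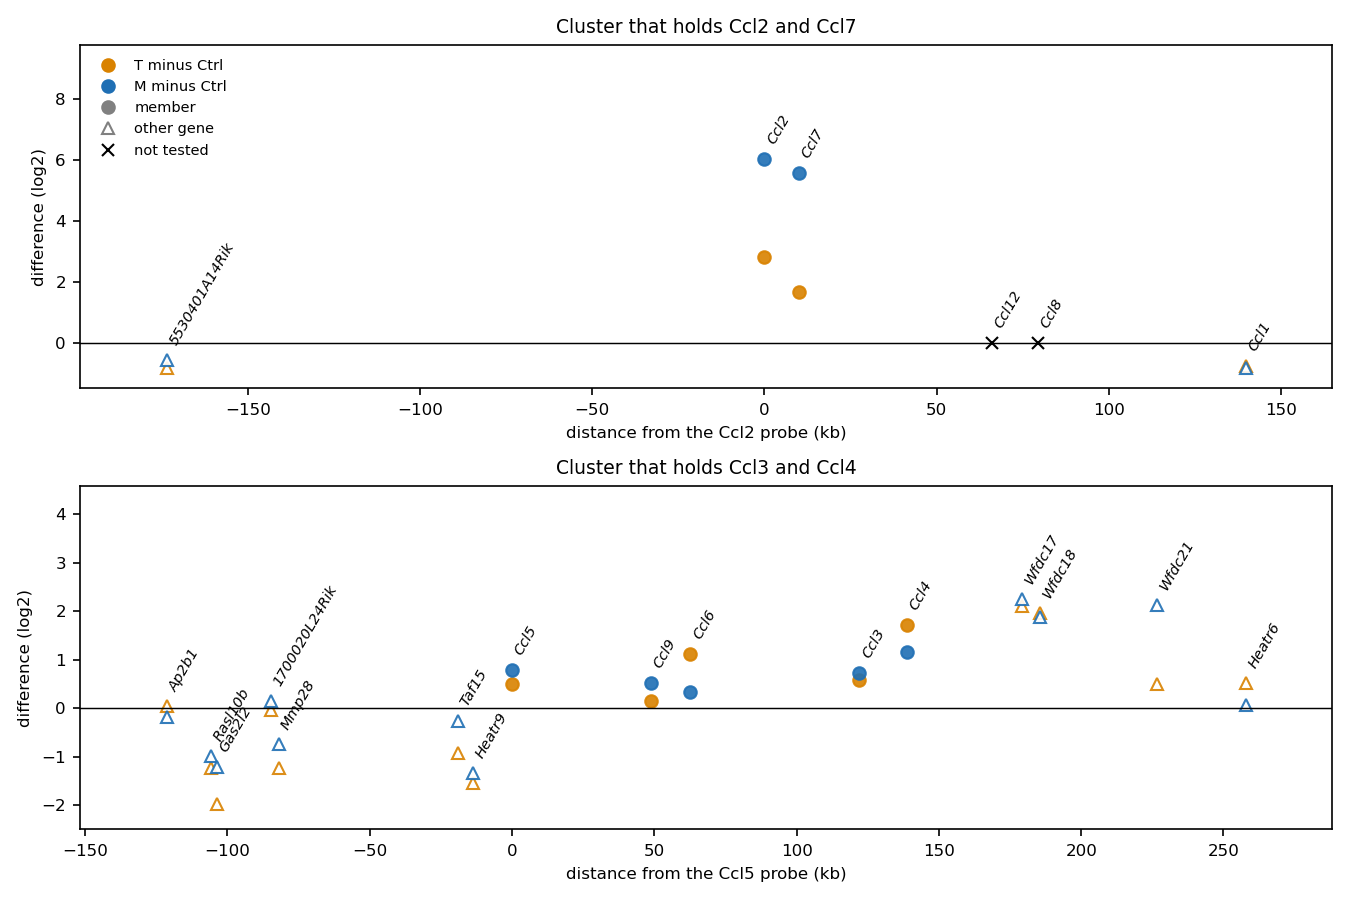
Log2 differences T minus Ctrl and M minus Ctrl by distance along the chromosome from the first ligand's probe (kb), with filled circles for ligands, open triangles for other tested genes and crosses at 0 for ligands not tested. Ccl2 and Ccl7 stand above 5 in M in the first group, Ccl7 from a Ctrl level near background, and Wfdc17, Wfdc18 and Wfdc21 lie near 2 in M beyond Ccl4 in the second.

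The genes closest to a ligand in pattern were taken as those with the smallest root mean square difference of log2 levels over the 9 arrays, each gene centred on its own mean, for the 4 ligands whose group means ranged most. For Ccl2 they were Mmp9, which encodes a gelatinase (0.32), Alpl, an alkaline phosphatase gene (0.33), and Prss35 (0.33). For Ccl7 they were Alpl (0.26), Ms4a6d (0.30) and Clec4a1 (0.37). Mmp9 differed by 3.43 in T minus Ctrl and 6.32 in M minus Ctrl, beside 2.83 and 6.02 for Ccl2.

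Ccl4 was closest to Osm, which encodes the cytokine oncostatin M (0.16), and to Tnxb and Prmt2 (both 0.17). Ccl24 was closest to Tmigd3 (0.13), H2-DMa, a gene of class II antigen loading (0.14), and 9630028I04Rik (0.16). Among the ligands themselves, Ccl3 and Ccl5 (0.19) and Ccl5 and Ccl9 (0.19) were the closest pairs, and Ccl2 and Ccl7 differed by 0.49. These are descriptions over arrays that fall into 3 groups, with no test.

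Of 14 other CC ligand genes, 10 were on the array and 7 were tested: 2 rose and 3 fell in T (17.6% and 27.1% of all genes), none rose and 1 fell in M (12.3% and 11.0% of all genes). Ccl22, a ligand of CCR4 made by alternatively activated macrophages and dendritic cells, was above background on the T arrays only, at 0.0570, 0.0636 and 0.0582. It was at least 5.13-fold higher in T than in Ctrl (adjusted p = 0.000406 by limma) and at least 2.81-fold higher in T than in M (adjusted p = 0.00401). Ccl25, a thymic and gut ligand of CCR9, rose 2.06-fold in T (adjusted p = 0.00533), and Ccl17, which shares CCR4 with Ccl22, passed in no comparison. The ligands that fell in T were Ccl26, given above, Ccl27a (-1.33) and Ccl19 (-0.83).

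Of 11 CC receptor genes, 8 were tested: 2 rose and 1 fell in T, where 17.6% of all genes rose and 27.1% fell. In M 1 rose and none fell, where 12.3% of all genes rose and 11.0% fell. Ccr1, the receptor of Ccl3, Ccl5, Ccl6, Ccl7 and Ccl9, had relative signals of 0.00298, 0.00362 and 0.0171 in Ctrl, 0.0953, 0.173 and 0.158 in T and 0.796, 0.547 and 0.726 in M. Its groups rose in separate steps, like those of Ccl2 and Ccl7, and only Ctrl3 was above background among the Ctrl arrays. The log2 difference was 4.60 ± 0.56 in T (adjusted p = 0.000245 by limma), 6.90 ± 0.56 in M (adjusted p = 1.70e-05) and 2.31 ± 0.56 between M and T (adjusted p = 0.0138). Ccr2, the receptor of Ccl2 and Ccl7, was above background on 2 Ctrl arrays and on no T or M array.

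Ccr10, a receptor of skin and gut homing, was higher in T than in Ctrl (0.79, adjusted p = 0.00888 by limma) and lower in M than in T (-1.22, adjusted p = 0.00140), and Ccr8 was lower in T (-0.88, adjusted p = 0.0455). Ccr3, the receptor of Ccl24, varied widely in Ctrl, at 0.546, 0.236 and 0.0351, and passed in no comparison. Of the 5 atypical receptors, which bind chemokines or related ligands without G protein signalling, 3 were tested. In T 1 rose and 2 fell, where 17.6% of all genes rose and 27.1% fell. In M 1 rose and 1 fell, where 12.3% of all genes rose and 11.0% fell. Ccrl2, which presents the attractant chemerin, rose 4.16-fold in T (adjusted p = 0.000160 by limma) and 4.48-fold in M (adjusted p = 0.000134). Ackr1 was lower in T than in Ctrl (-1.27, adjusted p = 0.00116 by limma) and did not pass in M minus Ctrl. Ackr2, a scavenger of inflammatory CC chemokines, was lower than in Ctrl by log2 differences of 1.73 for T and 1.45 for M. Its M arrays overlapped Ctrl, at 0.0533 on M2 beside 0.05235 on Ctrl3.

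**Figure D4:**
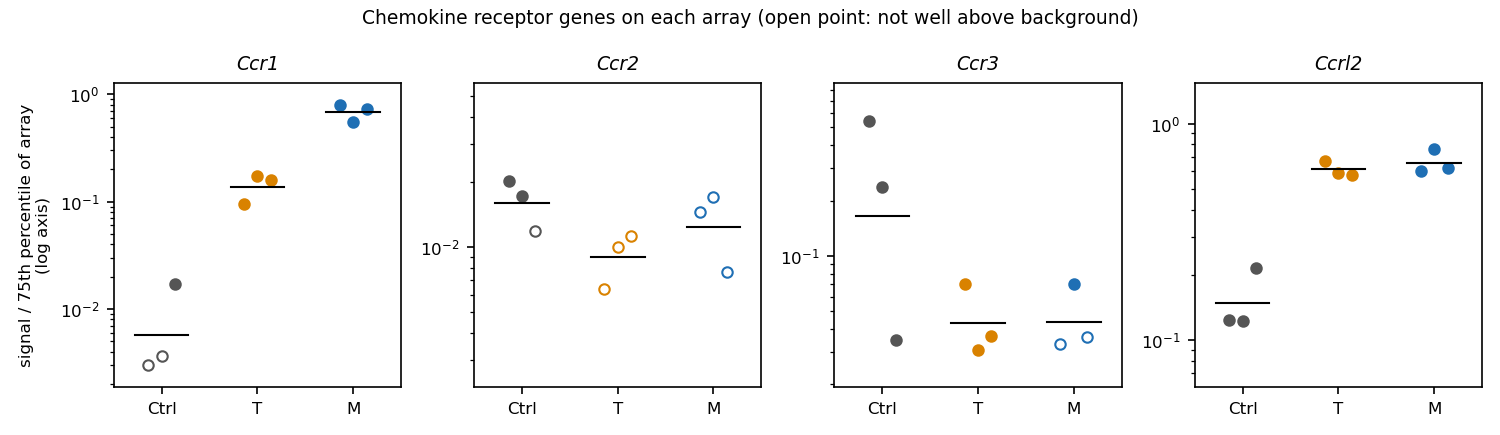
Relative signal (log axis with its own range in each panel) of 4 receptor genes on each array, with open points where the probe was not well above background. Ccr1 rises from 0.00298 on Ctrl1 to 0.796 on M1, Ccr2 is above background on no T or M array, and Ccrl2 is higher in T and M than in Ctrl.

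Of 39 genes of chemokine receptor signalling, all tested, 6 rose and 6 fell in T, against 17.6% and 27.1% of all genes. In M 11 rose and none fell, against 12.3% and 11.0% of all genes. Compared with T, 12 were higher in M and 3 lower, against 14.6% and 10.8%. Rgs16 and Rgs1, regulators that shorten G protein signals, rose in T by 2.02 and 1.38. Grk3 (-1.11) and Src (-1.08) fell in T, Grk3 at a low signal. Fgr, a Src-family kinase gene of myeloid cells, was higher in M than in Ctrl by 3.11 ± 0.16 (adjusted p = 6.63e-07 by limma) and did not pass in T (0.02, adjusted p = 0.934). Rgs18 was above background in M only, at least 5.14-fold over Ctrl (adjusted p = 1.45e-05 by limma) and at least 4.76-fold over T (adjusted p = 9.42e-06). The list median was -0.13 in T and 0.18 in M, beside -0.14 and -0.09 over all genes.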

How the data were processed

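RNA of 9 macrophage samples (3 Ctrl, 3 T, 3 M) was labelled with Cy3 and hybridised to Agilent 1-colour arrays. Per the submitters' processing notes, the authors used Agilent Feature Extraction 10.7.3.1. Its deposited files hold spot intensity (processed signal) after background subtraction and, per the file headers, without scaling across arrays. The deposited value table holds 5 columns on a log2 scale and 4 on a linear intensity scale, found by comparison with the scanner files. The scale and centring of its T2 column stay inferred, and no column is a ratio, so direction is not in question. The column medians were 215, -3.39 and -3.71 for Ctrl1 to Ctrl3, -3.76, -3.93 and -4.03 for T1 to T3, and 195, 246 and 219 for M1 to M3.

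Control and outlier spots (147 to 299 per array) were left out, spots of a probe were averaged, and log2 of the signal minus the array's 75th percentile was used. No spot was saturated. Of 55681 probes, 26756 were named by RefSeq accession (GRCm38.p6 table, names only), 5760 kept the array's name and 23165 had no symbol. Testing required a probe to be well above background on every array of some group, and the brightest probe stood for its gene. Group means were fitted to all 9 arrays with limma 3.58.1 in R 4.3.3, two-sided, with Benjamini-Hochberg adjustment. The SE is the moderated SE of that fit and pools the spread of all groups. "At least" folds set the bright group against the lowest signal well above background. They are not confidence limits: for Ccl22 in T over Ctrl the 95% interval of the fit began at 4.18-fold, below the 5.13-fold given. The procedure was tested on simulated data. The number of arrays limits the precision.

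The ligands, gene lists and markers were chosen with earlier results of these data known. Named genes were the 10 ligands, up to 4 called genes of each list, the nearest genes in position and in pattern, and receptors of the measured ligands. Ccl17, Ccr2 and Ccr3 were named for their ties to these ligands after their values were seen. Alternatives covered normalization, background, filter, spread model, replicate block, the deposited table and single arrays. A slide block could not be fitted. Same-numbered Ctrl and T samples had correlations of deviations from the group means of 0.12 to 0.55 over 3 pairs. Differently numbered Ctrl and T samples had -0.45 to 0.19, and Ctrl1 and M2 had 0.35. These values do not settle whether the numbers mark pairs, and no label says so. The main fit therefore used no pairing, and the replicate block was an alternative only. Same-numbered samples with M had correlations of -0.27 to 0.02.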

Additional observations from a re-analysis of the deposited data

Results flagged for a closer look

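The T2 column of the deposited value table equalled no scanner file, with 0.20% of its probes within 0.001 on the log2 scale, against over 99% for every other column. Every ligand stood higher in this column than in the T2 scanner file, by 0.65 (Ccl4) to 7.37 (Ccl7). For Ccl2, Ccl5, Ccl7 and Ccl24 it held levels above every Ctrl column and every T scanner array by more than 1 log2 unit. The same was so for Ccl8 and Ccl12, which were not tested. Ccl2 stood at 5.55, beside 1.18 in the T2 scanner file. Ccl7 stood at 2.66, beside -4.71. Ccl5 stood at 3.99, beside 1.78, and Ccl24 at -1.60, beside -3.18. Over 39941 tested probes this column differed from the scanner arrays by a root mean square of 0.68 to 0.74 for M, 0.74 to 0.77 for T and 0.99 to 1.35 for Ctrl. The M1 column equalled the M2 scanner file and the M2 column the M1 file, which changes no group mean. All values in the comparisons come from the scanner files.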

How the results depend on the processing

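Under 24 other settings in T minus Ctrl and 23 in the other comparisons (1 fewer for Ccl7, which a stricter filter removed) no called ligand reversed its direction. Ccl2 and Ccl4 against Ctrl, Ccl6 in T and Ccl24 in M over Ctrl kept their calls in every one. The calls most often lost were Ccl3 in M minus Ctrl (13 settings), Ccl6 in M minus T (9) and Ccl5 in T minus Ctrl (8). With 1 array left out in turn, rising ligands numbered 4 to 6 in T minus Ctrl, 5 to 7 in M minus Ctrl and 3 in M minus T, and falling ones 0 to 1, 0 and 0 to 2.

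Falling ligands in T minus Ctrl became 1 (Ccl24) with array weights and with the mean of a gene's probes. Lower ligands in M minus T became 2 (Ccl4 added) with quantile normalization, normexp, only the 2 groups compared, a trended robust spread and array weights. They became 0 with the replicate block, with the deposited table with or without its T2 column, and without M1 and M3 together, a setting chosen after seeing the data that left M2 alone and assumed it to vary like the other groups. The deposited table gave 3 rising ligands in M minus Ctrl and 0 in M minus T. Without its T2 column, also chosen after seeing the data, it gave 5 and 3. The cause was not tested.

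Genes called in M minus Ctrl (4245 in all) became 2050 with the deposited table, 2217 with only the 2 groups compared, 8405 with array weights, 903 without M1 and M3, and 1868 to 7809 with 1 array left out, the highest without Ctrl3. Genes called in M minus T (4613) became 7182 with no filter, which tests more genes, 1404 and 2892 with the deposited table with and without T2, 8353 with array weights, 2353 without M1 and M3, and 2853 to 6114 with 1 array left out. Those in T minus Ctrl (8127) became 11623 with array weights and 5452 to 9686 with 1 array left out. The median of all genes moved from -0.14 to 0.29 in T minus Ctrl and from -0.09 to 0.21 in M minus Ctrl with median scaling, and higher calls from 39.4% to 66.3% and from 52.7% to 74.5% of calls. With quantile normalization the shares were 52.7% and 66.6%. In M minus T, higher calls went from 57.6% to 44.9% with median scaling.

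The replicate block left 4 rising ligands in T minus Ctrl, 5 in M minus Ctrl and 3 in M minus T, with Ccl5 in T minus Ctrl (adjusted p = 0.0584), Ccl3 in M minus Ctrl (0.0645) and Ccl6 in M minus T (0.0613) no longer passing by limma, and changed no other ligand call. On the Ctrl and T arrays alone, a setting chosen after seeing the data, the block left 5 rising ligands. Leaving out a slide was not possible, since T lay on a slide of its own. Ccl12, Ccl8 and Ccl7 in Ctrl were limited by signal over background.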
